A study of Mus musculus with 15 samples.

Results

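Lag3, Havcr2, Tigit, Cd160 and Cd96 encode inhibitory receptors of the immunoglobulin superfamily that T cells and natural killer (NK) cells carry. These 5 genes, out of 18194 genes on the arrays, were selected by name with their measured levels in these T cells known, as a group of receptors thought of as appearing late in activation. The signals that chose them are therefore described without a test in T cells. That choice did not rest on their response to lipopolysaccharide in B cells, which was tested. Earlier results of these data were known when the genes were chosen, so full independence of this test from the choice is not shown. A probe set is a group of short probes on an Affymetrix array that together read 1 transcript. Probe sets listed with exactly 1 of the symbols numbered 7: 1 for Lag3, 1 for Havcr2, 4 for Cd160 and 1 for Cd96. No probe set was listed under Tigit alone, and Tigit is not analysed here.

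The signals came from spleen lymphocytes of B6x129 mice and fall into 5 groups of 3 arrays. B cells were taken at 0 h or after 4 h with 25 ug/ml lipopolysaccharide (LPS), a bacterial product sensed by Toll-like receptor 4. T cells were taken at 0 h and after culture for 4 h or 14 h in concanavalin A (ConA) at 7.5 ug/ml, a plant lectin that activates T cells by cross-linking surface glycoproteins. No group was kept in culture without LPS or ConA, so time in culture and the agent cannot be told apart. The labels do not say whether the 3 arrays of a group came from separate animals or cultures, so the spread between them may be technical. Signals are on a log2 scale whose lowest value in the table is 2.24, and a gene was tested where its highest group mean was at least 5. With 3 arrays a group, the number of arrays limits the precision of every value.

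The group means of lineage markers set B and T cells apart, with signal of some B cell markers in T cells. All 7 T cell markers read above 4 in every T group, and 6 of the 7 (all but Cd3e) read under 4 in both B groups. Cd3e had means of 5.04 and 5.31 in B cells at 0 h and with LPS, with the same value, 5.02, on several arrays. All 4 B cell markers on the arrays read above 4 in both B groups. In T cells Cd79a (2.34) and Pax5 (2.24) lay at or near the lowest value, but Cd79b read between 6.90 and 7.65 and Ms4a1 between 6.08 and 7.03. NK cells express several of the receptors described here, and of 8 NK markers on the arrays Ncr1, Klre1 and Klrk1 read between 2.24 and 3.02 in all T groups and Gzma between 2.29 and 4.19. The other 4, which cytotoxic T cells can express as well, gave clear signal, with Klrd1 at 11.68, Nkg7 at 11.75, Eomes at 9.32 and Prf1 at 8.15 in T cells at 0 h. Correlations between arrays of a group were at least 0.995. T 0 h replicate 2 and T ConA 4 h replicate 1 had a weak 5' signal of the dap spike-in RNA, and the closing section covers the results without these arrays. Xist, the RNA of the inactive X chromosome of female cells, read between 11.70 and 12.31 on all arrays of B 0 h, T 0 h and T ConA 14 h, but between 2.24 and 2.42 with LPS and between 2.38 and 4.33 with ConA for 4 h. The Y-linked gene Eif2s3y read between 10.02 and 11.79 on all 15 arrays. The labels give no sex. The mice behind the groups therefore cannot be told apart from treatment in comparisons of either 4 h group, and the part of this in the receptor values was not tested.

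Inhibitory receptors limit the response of an activated lymphocyte when they meet their ligands on other cells. Lag3 resembles the coreceptor Cd4 and binds class II MHC molecules, as Cd4 does. Havcr2 (Tim-3) binds galectin-9 and Ceacam1. Tigit and Cd96 share the ligand Pvr with the activating receptor Cd226, and Cd160, which is held in the membrane by a lipid anchor, shares the ligand Tnfrsf14 (HVEM) with Btla. On chronically stimulated T cells Lag3, Havcr2, Tigit and Cd160 are widely used as signs of exhaustion, while several of them also appear on T cells within days of a first activation.

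The promoters of Cd96 and Cd160 are shown because these genes gave the T cell signals at 0 h described below. The windows run from 250 bases before to 50 bases after a gene's start, are read from RefSeq's mouse sequence (GRCm38.p6) and are written 5′ to 3′ on the gene's own strand. RefSeq windows were found for 4 of the 5 genes, with 2 for Cd160. The motifs searched on both strands were the NFAT core TGGAAA, the Runx core TGTGGT, AP-1 TGANTCA and the Myc E-box CACGTG. Capitals mark the matches, which in these 3 windows are to the NFAT core (Cd96) and the Runx core (all 3). The Cd96 window lies at chr16:46120199-46120498 on the minus strand. The Cd160 windows lie on the minus strand at chr3:96829302-96829601 (start 1) and chr3:96814472-96814771 (start 2).
Cd96: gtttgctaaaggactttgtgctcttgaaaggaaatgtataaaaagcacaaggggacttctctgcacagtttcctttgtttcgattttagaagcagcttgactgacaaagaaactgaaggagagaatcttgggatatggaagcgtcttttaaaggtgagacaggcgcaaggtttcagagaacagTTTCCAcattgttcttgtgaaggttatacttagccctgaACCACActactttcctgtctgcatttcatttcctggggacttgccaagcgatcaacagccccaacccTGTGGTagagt
Cd160 start 1: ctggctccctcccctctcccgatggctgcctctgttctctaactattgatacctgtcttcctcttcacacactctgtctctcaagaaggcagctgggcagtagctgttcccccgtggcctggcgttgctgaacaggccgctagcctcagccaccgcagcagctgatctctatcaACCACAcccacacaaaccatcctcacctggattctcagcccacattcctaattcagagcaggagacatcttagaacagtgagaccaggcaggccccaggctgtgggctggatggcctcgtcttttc
Cd160 start 2: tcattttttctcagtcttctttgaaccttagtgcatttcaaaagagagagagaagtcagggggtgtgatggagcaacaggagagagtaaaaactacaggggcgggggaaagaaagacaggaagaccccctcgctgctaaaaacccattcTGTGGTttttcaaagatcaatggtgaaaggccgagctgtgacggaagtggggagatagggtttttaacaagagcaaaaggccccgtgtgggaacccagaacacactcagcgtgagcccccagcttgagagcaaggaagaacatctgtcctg

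The Runx core was found in all 5 windows of Cd96, Cd160, Havcr2 and Tigit, and it is held by 16.8% of the 32851 windows of 300 bases in the RefSeq table. Cd96 held 2 matches, and each of the other windows held 1. The NFAT core was found only in the Cd96 window among these 5 (21.4% of all windows), AP-1 only in that of Havcr2 (7.81%), and the E-box in none of them (7.15%). No match overlapped another. The motifs were picked after the arrays had been analysed, and the matches are letters in these windows, not evidence of binding.

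Lag3 was the gene of this group that appeared late in T cells. Its probe set, 1449911_at, read 2.252, 2.262 and 2.253 on the arrays at 0 h, 3.79, 3.33 and 3.61 after 4 h, and 8.9996, 8.904 and 9.0094 after 14 h of ConA. The 3 sets of arrays did not overlap, and only those at 14 h lay above the level of 5. The means were 2.26 ± 0.01, 3.58 ± 0.23 and 8.97 ± 0.06 (SD, n = 3). The difference was 1.32 ± 0.09 (SE) from 0 h to 4 h and 5.39 ± 0.09 from 4 h to 14 h. From 0 h to 14 h it was 6.72 ± 0.09, which is 105-fold on this scale. The differences up to 14 h are lower bounds, since the 0 h mean lay next to the lowest value in the table and the 4 h mean was under 4. For the same reason the size of the difference from 0 h to 4 h is uncertain.

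In size, Lag3 gave the second largest difference upward of the 9045 tested genes both between 0 h and 14 h and between 4 h and 14 h. Irf4, a transcription factor, was ahead of it in the first comparison (7.85), and Xist, described above, in the second (8.58). Of the 9045 genes, 4 read under 4 at 0 h and at 4 h and at least 6 at 14 h, limits that were set after the values were seen. Besides Lag3 these were the chemokine Ccl22 (7.63 at 14 h, and 8.39 in B cells with LPS), the IL-12 receptor chain Il12rb1 (6.58) and P-selectin, Selp (7.08). In B cells Lag3 gave no signal above the lowest values: the arrays read between 2.458 and 2.466 at 0 h and between 2.460 and 2.483 after LPS. Dendritic cells can carry Lag3 as well, and of their markers Siglech and Xcr1 read 2.24 in all 3 T groups, Itgax between 2.25 and 2.33, Flt3 between 2.56 and 2.98, and Zbtb46, the fifth, between 4.90 and 4.99. The part of dendritic cells in the Lag3 signal was not tested.

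**Figure D1:**
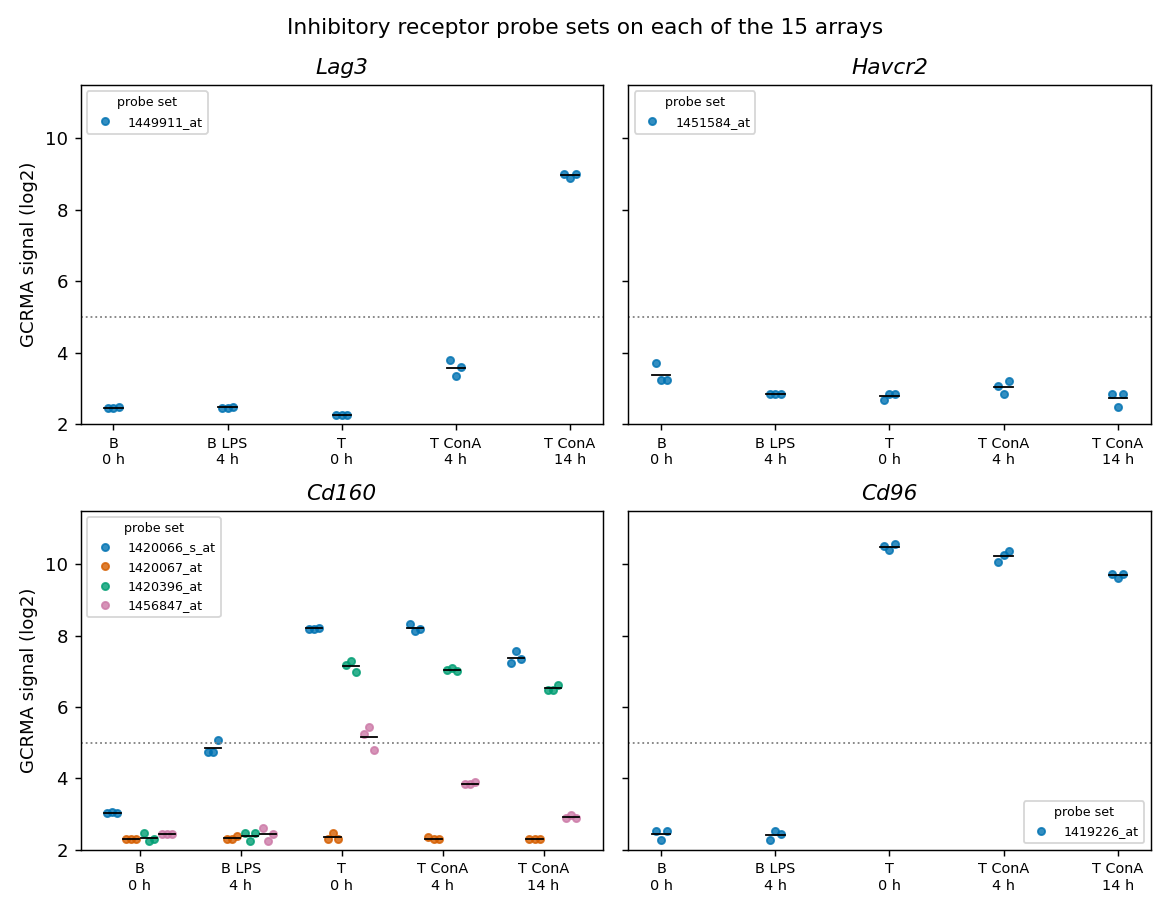
Log2 signal of each of the 7 probe sets (colours) on each of the 15 arrays (points), by group along the x axis, with black bars at group means and a dotted line at the testing level of 5. Lag3 lies above the line only at 14 h in T cells, Havcr2 never does, Cd96 and 2 Cd160 probe sets do so in all T groups, and Cd160 1420067_at stays near the bottom throughout.

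Cd96, the Pvr receptor, was present in T cells from the start and lower at 14 h. Probe set 1419226_at read 10.50, 10.39 and 10.56 at 0 h, 10.05, 10.27 and 10.38 at 4 h, and 9.72, 9.62 and 9.72 at 14 h. The 14 h arrays lay below all arrays of the earlier times, and those at 4 h lay just below those at 0 h. The difference from 0 h was -0.25 ± 0.10 (SE) at 4 h and -0.80 ± 0.10 at 14 h, and from 4 h to 14 h it was -0.54 ± 0.10. In B cells Cd96 lay between 2.26 and 2.54 on all 6 arrays.

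Cd160 was likewise present in T cells at 0 h and lower at 14 h, on each of the 3 probe sets that gave a signal. The brightest, 1420066_s_at, read 8.20, 8.18 and 8.23 at 0 h, 8.32, 8.13 and 8.19 at 4 h, and 7.23, 7.58 and 7.34 at 14 h. On it the 4 h arrays spanned those of 0 h, with a difference of 0.01 ± 0.10 (SE), and the 14 h arrays lay below both, at -0.82 ± 0.10 from 0 h. Probe set 1420396_at read 7.16, 7.30 and 6.98 at 0 h, 7.0441, 7.1019 and 6.9999 at 4 h, and 6.47, 6.48 and 6.62 at 14 h, a difference of -0.62 ± 0.10 from 0 h to 14 h. The dimmest of the 3, 1456847_at, went further and sooner, from 5.24, 5.43 and 4.80 at 0 h to 3.83, 3.83 and 3.89 at 4 h and 2.88, 2.97 and 2.88 at 14 h. The probe sets thus differed on whether Cd160 lay lower at 4 h: 1456847_at differed by -1.30 ± 0.13 (SE) and the other 2 by 0.01 and -0.10. Averaged over the 4 probe sets the difference at 4 h was -0.36. The fourth, 1420067_at, lay between 2.29 and 2.47 on all 15 arrays.

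Havcr2 was not detected at a level that could be tested. Its probe set 1451584_at read between 2.49 and 3.71 on all 15 arrays, and its highest group mean was 3.38 in B cells at 0 h. In T cells the means were 2.78 ± 0.10 at 0 h, 3.05 ± 0.18 at 4 h and 2.72 ± 0.20 at 14 h (SD, n = 3). Values this near the lowest ones of the table do not show that the transcript is absent. Of the probe sets of the group, the one just inside the level of 5 was Cd160 1456847_at, with a highest group mean of 5.16, and the nearest outside it was that of Havcr2.

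The label of late receptors thus described Lag3 among the 4 genes measured. Between 4 h and 14 h the arrays of Lag3, Cd160 and Cd96 did not overlap, which was so for 58.7% of all genes tested. Between 0 h and 14 h they did not overlap either (75.4% of all genes), and between 0 h and 4 h Lag3 and Cd96 did not (69.3%). These statements are for the brightest probe set of each tested gene. The arrays of Cd160 1456847_at did not overlap between 0 h and 4 h. Those of Havcr2, not tested and near the lowest values, did not overlap between 4 h and either other time. Since these contrasts were known when the genes were chosen, the counts are a description.

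In resting cells Cd96 and Cd160 were T cell genes on these arrays. At 0 h B cells lay 8.04 ± 0.10 (SE) below T cells for Cd96 and 5.16 ± 0.10 below for the brightest Cd160 probe set, both lower bounds because the B cell means lay near the lowest values. Averaged over its 4 probe sets Cd160 differed by -3.19. The arrays of the 2 cell types did not overlap for Lag3, Cd160 and Cd96, as for 79.8% of all genes. For Lag3 the B arrays lay 0.21 ± 0.09 higher, among values at the bottom of the scale. The order of the groups for Cd96 was T 0 h, T 4 h and T 14 h, then both B groups, which overlapped each other. For the brightest Cd160 probe set it was T 4 h and T 0 h, which overlapped, then T 14 h, B LPS 4 h and B 0 h. The dap spike-in 3' minus 5' difference lay between 0.90 and 1.44 on B arrays and between 1.82 and 5.94 on T arrays, and its part in differences between the cell types was not tested.

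Markers of the cells that carry Cd96 and Cd160 also moved in T cells. T cell markers fell in 6 of 7 genes at 4 h and in 6 of 7 at 14 h against 0 h (median -0.89 and -0.71, against 0.00 and 0.03 over all genes), and 32.5% and 31.9% of all genes fell. Their summed signal lay between 15.42 and 15.51 (log2) at 0 h, between 14.45 and 14.67 at 4 h and between 14.64 and 14.70 at 14 h. The CD8 chain Cd8b1 went from 13.22 to 11.20 at 4 h (-2.02 ± 0.12 SE, limma adjusted p = 3.67e-09) and 11.76 at 14 h (-1.45 ± 0.12, adjusted p = 1.11e-07). NK markers fell in 3 of the 4 tested at both times, among them Nkg7 (-2.19 ± 0.16 at 4 h, -1.14 ± 0.16 at 14 h), a granule protein that CD8 T cells also make. The summed NK signal lay between 12.89 and 12.92 at 0 h, 11.55 and 11.77 at 4 h, and 11.76 and 11.84 at 14 h. Of 8 markers of monocytes, macrophages and neutrophils 5 were tested. At 4 h 2 of them rose and 1 fell (33.4% and 32.5% of all genes). At 14 h against 0 h 4 fell (31.9% of all genes). Those that rose at 4 h were S100a8, with means of 7.48, 10.19 and 4.67 at 0 h, 4 h and 14 h, and S100a9, with 6.20, 8.65 and 2.65. Lyz2 fell, with 7.16, 6.18 and 5.68. Csf1r, Itgam, Cd14, Adgre1 and Fcgr1 had means under 4 in all T groups. In cells of mixed type, fewer cells of 1 type and less RNA per cell cannot be told apart, and the part of these marker changes in the lower Cd96 and Cd160 signals was not tested.

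**Figure D2:**
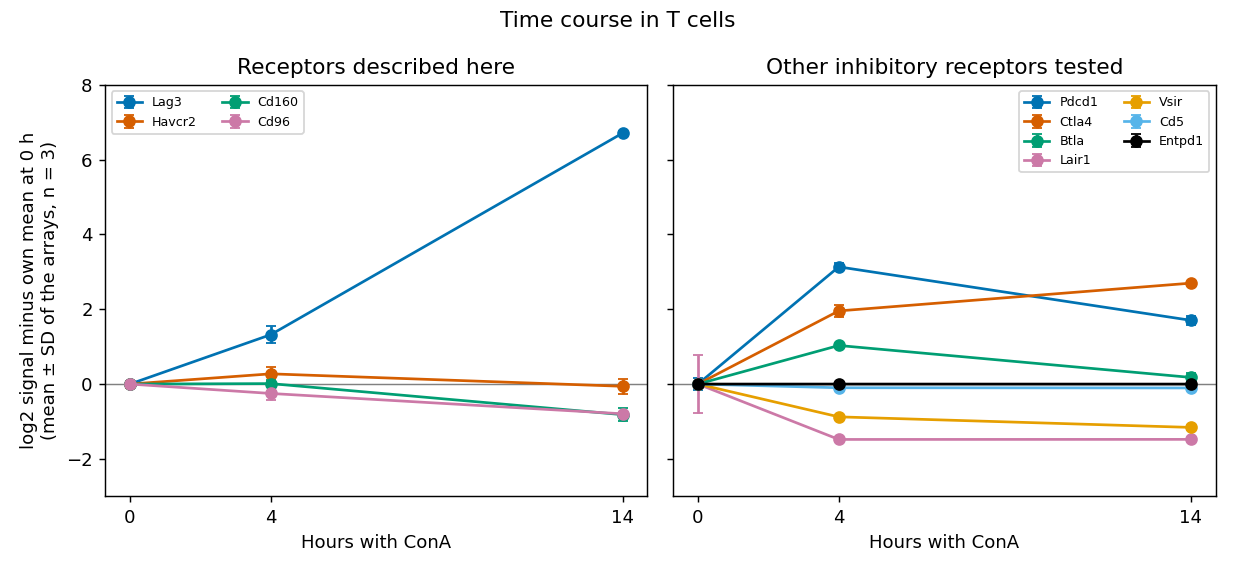
Group means of each gene's brightest probe set in T cells against hours with ConA, each minus its own mean at 0 h (log2 difference), with error bars of 1 SD over 3 arrays. On the left Lag3 reaches 6.72 at 14 h while Cd160 and Cd96 lie at -0.82 and -0.80. On the right Pdcd1 and Btla peak at 4 h and Ctla4 is highest at 14 h.

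B cells given LPS were the comparison in which these receptors were tested. Cd160 rose, while Lag3 and Cd96 did not pass, and over all genes 79.9% changed and 37.6% rose. All 3 had reached the level of 5 through T cells only, and no B group mean of theirs reached it. Lag3 and Cd96 lay near the lowest values in both B groups, where a change could go unseen, so their tests say little. The brightest Cd160 probe set read 3.04, 3.05 and 3.04 at 0 h and 4.74, 4.74 and 5.07 after LPS, with no overlap (81.6% of all genes). The change was 1.81 ± 0.10 (SE), or 3.51-fold (limma adjusted p = 6.92e-10), a lower bound since the 0 h mean lay near the lowest values. The other Cd160 probe sets did not share it. Those that were fitted gave 0.06 ± 0.10 for 1420396_at (adjusted p = 0.613 over all probe sets) and -0.02 ± 0.13 for 1456847_at (adjusted p = 0.922), with all B means between 2.33 and 2.45. Averaged over the 4 probe sets the change was 0.47 and passed the test as well. The suffix of 1420066_s_at marks probes shared by more than 1 transcript, which may or may not be of the same gene, and the rise in B cells rests on this probe set.

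Neither Lag3 (0.01 ± 0.09 SE, limma adjusted p = 0.954) nor Cd96 (-0.03 ± 0.10, adjusted p = 0.805) passed the test with LPS. Havcr2 read 3.71, 3.22 and 3.22 at 0 h and 2.83 on each array after LPS. Markers of other cells moved in the same B cell arrays. Summed NK signal went from between 7.24 and 7.43 to between 5.74 and 5.96. That of monocytes, macrophages and neutrophils, some of which carry Havcr2, went from between 11.89 and 12.0045 to between 8.16 and 8.26, with 5 of 5 tested markers down. Summed dendritic cell signal went up from between 7.05 and 7.26 to between 9.66 and 10.03, through Zbtb46 and Flt3, while Itgax went from 6.08 to 2.34 and Siglech and Xcr1 lay near 2.24. The part of these cells in the Cd160 and Havcr2 values was not tested.

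The other inhibitory receptors of lymphocytes split in T cells. Of 13 listed, 10 were on the arrays and 7 were tested. At 4 h 3 rose and 2 fell, with 65.9% of all genes changed, 33.4% upward. At 14 h against 0 h 3 rose and 2 fell again, with 68.4% changed, 36.6% upward. The median difference was 0.00 at both times (0.00 and 0.03 over all genes). That median was the value of Entpd1, which read 2.24 on all T arrays, so it says nothing about the list. Entpd1 and Lair1 had reached the level of 5 only through B cells at 0 h (6.16 and 5.22). Their results in T cells therefore say little.

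Pdcd1 (PD-1) read 5.59, 5.33 and 5.63 at 0 h, 8.56, 8.77 and 8.63 at 4 h and 7.19, 7.36 and 7.12 at 14 h. It rose by 3.13 ± 0.09 (SE) at 4 h (limma adjusted p = 3.41e-12), and then fell by 1.43 ± 0.09 from 4 h to 14 h (adjusted p = 4.98e-08). Btla, the other receptor for Tnfrsf14, had the same course in small, with a rise of 1.03 ± 0.07 at 4 h and -0.85 ± 0.07 from 4 h to 14 h. Ctla4, which binds the B7 ligands, rose by 1.96 ± 0.14 at 4 h and by a further 0.74 ± 0.14 from 4 h to 14 h (adjusted p = 0.000799). Its arrays all held the same value, 8.09, at 0 h and read 9.87 to 10.17 at 4 h and 10.76 to 10.80 at 14 h, without overlap.

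Ctla4 was the 1 receptor of the 7 that rose between 4 h and 14 h, while Pdcd1 and Btla fell (27.4% of all genes rose, 21.5% fell, 48.9% changed). The falls against 0 h were in Vsir (VISTA; -0.88 ± 0.12 at 4 h and -1.16 ± 0.12 at 14 h) and in the collagen receptor Lair1. Lair1 read 3.35, 3.19 and 4.63 at 0 h and about 2.24 on all 6 later arrays, a difference of -1.48 ± 0.26 at both times and a lower bound in size. Of the receptors too dim to test, Klrg1 had means of 4.33, 3.63 and 2.55 at 0 h, 4 h and 14 h, and Cd200r1 of 4.92, 3.36 and 2.77. In B cells with LPS 2 of the 7 rose and 4 fell (42.3% of all genes fell), led by the ectonucleotidase Entpd1 (CD39, -3.91 ± 0.08, adjusted p = 4.15e-14), Lair1 (-2.98 ± 0.26) and Vsir (1.39 ± 0.12). Entpd1 and Lair1 lay at the bottom of the scale after LPS, so both changes are lower bounds, and the macrophage markers given above fell on the same arrays.

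Ligands of the receptors changed in both cell types, with 9 of 15 tested. In T cells 5 rose and 2 fell at 4 h (33.4% and 32.5% of all genes). At 14 h against 0 h 2 rose and 1 fell (36.6% and 31.9% of all genes), or 4 and 2 without the arrays with a weak spike-in signal. The ligands that rose at 4 h included the class II chains H2-Aa (0.41), H2-Ab1 (0.58) and H2-Eb1 (0.545). Of the 4 B cell markers tested on the same arrays, Ms4a1 rose (0.95 ± 0.29 SE) and Cd79b fell (-0.53 ± 0.09). The part of B cells in the class II signals of the T cell arrays was not tested. Tnfrsf14, the ligand of Cd160 and Btla, read 8.16, 8.16 and 8.10 at 0 h, 10.10, 10.21 and 10.10 at 4 h and 8.984, 8.947 and 8.998 at 14 h. It rose by 2.0014 ± 0.20 (SE) at 4 h (limma adjusted p = 1.17e-06) and stayed 0.84 ± 0.20 above 0 h at 14 h (adjusted p = 0.0024). Pvr, the ligand of Tigit and Cd96, rose by 1.16 ± 0.17 at 4 h (adjusted p = 3.52e-05) and read 0.39 ± 0.17 above 0 h at 14 h (adjusted p = 0.0531). The galectin Lgals9, a ligand of Havcr2, fell by 1.52 ± 0.19 at 4 h (adjusted p = 1.03e-05) and rose by 1.16 ± 0.19 from 4 h to 14 h. Between 4 h and 14 h 5 ligands fell and 1 rose (21.5% and 27.4% of all genes).

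In B cells with LPS 7 of the 9 ligands fell and 2 rose, where 42.3% of all genes fell and 37.6% rose. Ceacam1, a ligand of Havcr2, read 8.18, 8.16 and 8.42 at 0 h and 2.24 on each array after LPS, a fall of at least 6.01 ± 0.07 (SE, adjusted p = 8.75e-17), and 2.24 on all T arrays. Tnfrsf14 fell by 1.67 ± 0.20 (adjusted p = 3.65e-06), and Lgals3, a galectin that binds Lag3, fell by 1.68 ± 0.11. The macrophage markers given above fell on the same arrays, among them Csf1r (from 9.33 to 2.37) and Adgre1 (from 7.40 to 3.41). The part of such cells in the falls of the ligands was not tested. Pvr rose by 1.55 ± 0.17 (adjusted p = 1.02e-06), from 5.56, 5.85 and 5.59 to 7.38, 6.84 and 7.45. The class II chains that Lag3 binds were among the genes that set B apart from T cells at 0 h, with H2-Ab1 at 6.71 ± 0.08 (adjusted p = 2.81e-17) and H2-Eb1 at 6.08 ± 0.08 higher in B cells. In that comparison 6 of 9 ligands were higher in B cells and 2 were lower, against 25.5% and 51.1% of all genes and 76.6% changed. Nectin1, Nectin2 and Nectin3 had group means between 2.24 and 2.48 and were not tested.

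Signalling partners and competitors moved in both directions. Of 13 listed, 11 were tested, and at 4 h in T cells 3 rose and 3 fell, near the shares over all genes (33.4% and 32.5%). At 14 h against 0 h 1 rose and 6 fell (36.6% and 31.9% of all genes), with a median of -0.17, against 0.03 over all genes. Crtam, a receptor for a nectin-like ligand, rose by 1.23 ± 0.10 (SE) at 4 h (limma adjusted p = 9.08e-08) and fell by 1.32 ± 0.10 from 4 h to 14 h. Inpp5d, the phosphatase SHIP1, fell by 1.16 ± 0.06 at 14 h (adjusted p = 7e-10), and so did the beta-arrestin gene Arrb2 (-1.60 ± 0.14). Bag6, which binds the tail of Havcr2, was the gene that rose at 14 h (0.28 ± 0.09, adjusted p = 0.0139). Cd226, the activating receptor that competes for Pvr, had group means between 2.68 and 2.87 and was not tested. In B cells with LPS 5 partners rose and 6 fell (37.6% and 42.3% of all genes), with the kinase Fyn up by 2.52 ± 0.07 and Arrb2 down (-3.08 ± 0.14).

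Transcription factors tied to inhibitory receptor genes mostly rose early. Of 18 tested, 13 rose and 2 fell at 4 h in T cells (median 1.66), where 33.4% of all genes rose and 32.5% fell. At 14 h against 0 h 10 rose and 4 fell (median 1.12), where the shares were 36.6% and 31.9%. From 4 h to 14 h 11 fell and 3 rose (median -0.63, against 0.02 over all genes), where 21.5% fell and 27.4% rose. The falls were led by Nr4a2 (-2.12 ± 0.15 SE), Egr2 (-1.84 ± 0.14), Tox (-1.65 ± 0.18, limma adjusted p = 6.40e-06) and Egr3 (-1.43 ± 0.09). Tox, a factor required for exhausted T cells, had means of 9.41, 9.73 and 8.07 at 0 h, 4 h and 14 h. The 3 that rose in that interval, named after their values were seen, were the T-box factor Tbx21 (0.59 ± 0.14, adjusted p = 0.0042), Id2, an inhibitor of E proteins (0.43 ± 0.09, adjusted p = 0.00141), and the hypoxia factor Hif1a (0.40 ± 0.09, adjusted p = 0.00297). Of these Id2 had fallen at 4 h (-0.98 ± 0.09) and was still below its 0 h level at 14 h (-0.54 ± 0.09). In B cells with LPS 9 of the 18 rose and 7 fell (37.6% and 42.3% of all genes), with Nr4a1 up by 5.06 ± 0.10 and Batf by 4.46 ± 0.09, on arrays where Lag3 stayed at the bottom of the scale.

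**Figure D3:**
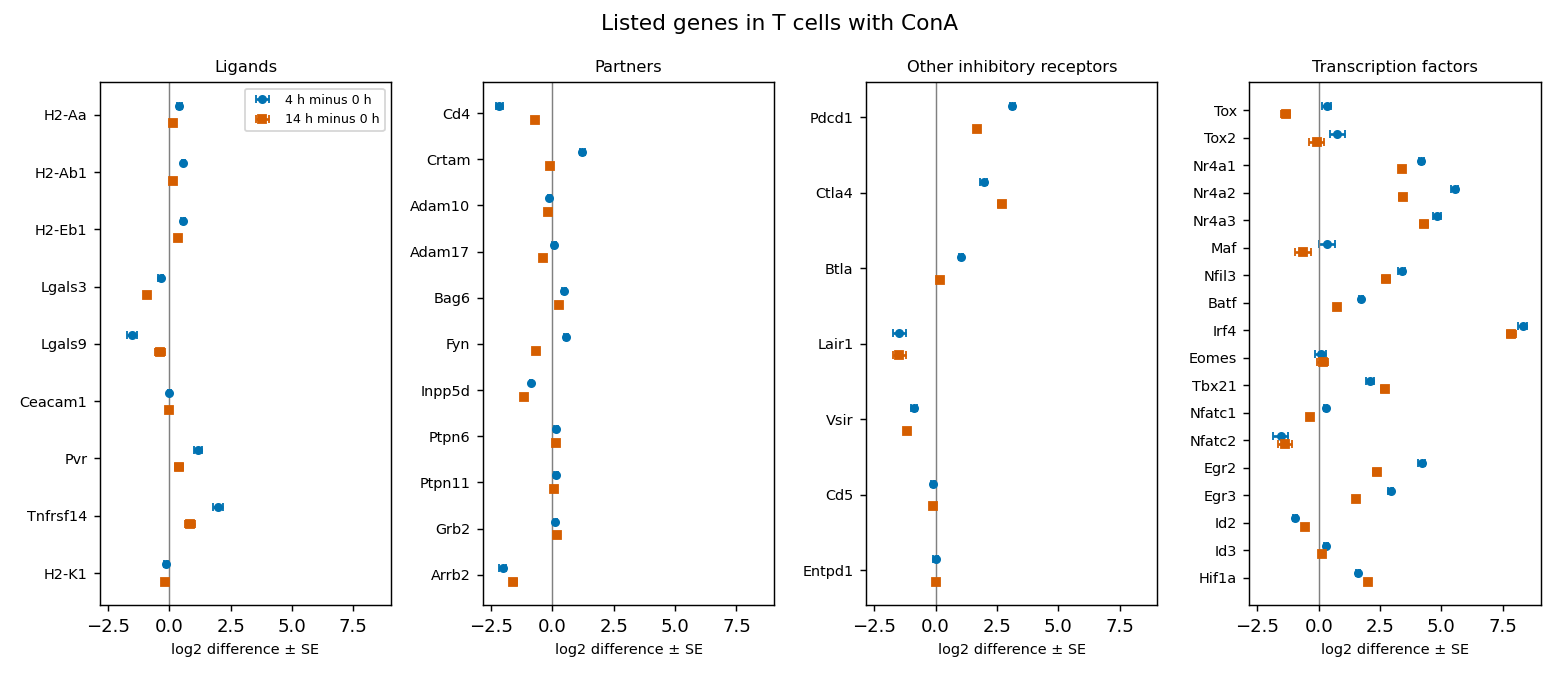
Log2 difference from 0 h in T cells after 4 h (blue circles) and 14 h (orange squares) of ConA, with error bars of 1 SE from the fit, for every tested gene of the 4 lists. Most transcription factors lie to the right at 4 h and nearer to 0 at 14 h, and Pdcd1 and Btla do the same while Ctla4 moves further right.

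The genes nearest to Lag3 in pattern were sought among 9044 others by the root mean square (RMS) difference of their 5 group means, each gene centred on its own mean. The nearest was Tg, which encodes thyroglobulin, the thyroid hormone precursor, with an RMS difference of 0.34. Tg read between 2.24 and 2.29 on the 9 arrays of B cells and T 0 h, 4.56, 4.37 and 3.99 at 4 h and 8.83, 9.09 and 8.88 at 14 h. Selp (0.77), Il12rb1 (1.17), Ptms (1.21) and D630039A03Rik (1.30) followed. The points share arrays and normalization, and the search gives no test.

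Ptms, which encodes the small acidic protein parathymosin, is also the gene next to Lag3 in the RefSeq order of named protein-coding genes (GRCm38.p6), with Cd4 on the other side. The brightest Ptms probe set, 1428708_x_at, read 5.69, 5.44 and 5.38 at 0 h in T cells, 6.49, 6.59 and 5.96 at 4 h and 9.21, 8.61 and 8.85 at 14 h. It rose by 0.84 ± 0.19 (SE) at 4 h (limma adjusted p = 0.00124) and by 2.54 ± 0.19 from 4 h to 14 h (adjusted p = 1.77e-07), with no change called for LPS in B cells (0.24 ± 0.19, adjusted p = 0.247). A second probe set, 1428707_at, had means of 4.67, 5.19 and 7.79 at 0 h, 4 h and 14 h. The third, 1452508_x_at, had means of 5.52, 5.39 and 5.66, so 2 of the 3 Ptms probe sets were high at 14 h. Averaged over its 3 probe sets Ptms ranked 23 rather than 4 among the genes nearest to Lag3.

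Cd4, the other neighbour and the relative of Lag3 that binds the same ligand, went the opposite way first. It read 7.71, 7.42 and 7.70 at 0 h in T cells, 5.53, 5.39 and 5.45 at 4 h and 7.03, 6.98 and 6.69 at 14 h. It fell by 2.16 ± 0.13 (SE) at 4 h (limma adjusted p = 4.06e-09) and rose by 1.44 ± 0.13 from 4 h to 14 h (adjusted p = 9.32e-07), ending 0.71 ± 0.13 below 0 h. Neighbours of the other receptors moved too. Against 0 h in T cells Med7, beside Havcr2, rose at 4 h (1.64 ± 0.07), and Zbtb20, beside Tigit, fell (-2.07 ± 0.08). Plcxd2, beside Cd96, fell at 14 h (-0.57 ± 0.11) and rose with LPS in B cells (2.43 ± 0.11). BC053393, Drd3, Pdzk1 and Nectin3 were too dim to test. Rnf115, beside Cd160, is covered in the closing section.

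**Figure D4:**
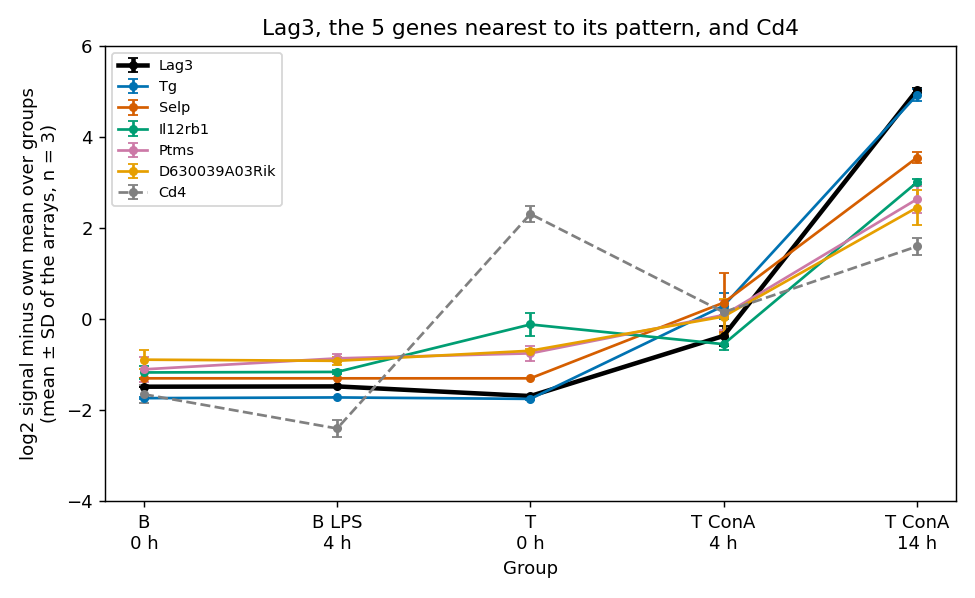
Group means of Lag3 (black), the 5 genes nearest to it in pattern (colours) and Cd4 (grey, dashed), each minus its own mean over the 5 groups (log2), with error bars of 1 SD over 3 arrays. Tg follows Lag3 most closely, Ptms rises less steeply, and Cd4 is highest at 0 h in T cells.

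The genes nearest to Cd96 were Prkcq, the kinase PKC theta of T cell receptor signalling (RMS difference 0.16), the ubiquitin ligase gene Rnf125 (0.20), the protease gene Ctsw of cytotoxic cells (0.25), Prkch (0.28) and the thrombin receptor F2r (0.31). Prkcq had group means of 11.48, 11.22 and 10.53 at 0 h, 4 h and 14 h in T cells. Prkch, by contrast, had means of 10.45, 10.85 and 10.48, without the lower level at 14 h that Cd96 had. The genes nearest to the brightest Cd160 probe set were Znrf3 (0.20), Abtb2 (0.21), Notch1 (0.30), Ifitm1 (0.31) and Arhgap31 (0.32). The B cell signal of that probe set after LPS, which the other Cd160 probe sets did not share, enters this likeness.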

How the data were processed

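Gene expression was measured on 15 Affymetrix mouse arrays. The deposited values are log2 signals per probe set, made by the authors with GCRMA, which corrects background and normalizes arrays together, per the submitters' processing notes. No version of it was found in the labels. Labelling used total RNA and a 3' IVT kit, per the labels' protocols.

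Probe sets with 1 symbol in the platform's gene table (34958 of 45101) were named, and 34754 had an Entrez number in the RefSeq table. The 932 with several symbols and 9211 with none were left out. Each of 18194 genes was read from its probe set with the highest mean, and the 9045 with a highest group mean of at least 5 were fitted with limma 3.58.1 in R 4.3.3 (group means over 15 arrays, eBayes). P-values were Benjamini-Hochberg adjusted over all genes tested, with 0.05 as threshold. Other probe sets of a gene took their SE from a fit over all probe sets. The procedure was tested on simulated data.

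The genes described and the gene lists were chosen with earlier results of these data known. All 5 receptors were named. Other names were taken from up to 4 called genes with the largest change per list and comparison, the 5 nearest patterns and genomic neighbours. Exceptions are marked. Settings varied were the filter, probe set choice, normalization, prior, arrays, and replicate block. Correlations of same-numbered deviations from group means ran from -0.46 to 0.24 and gave no sign that replicate numbers pair the arrays. Arrays with different numbers were not compared, so this check cannot exclude pairing.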

Additional observations from a re-analysis of the deposited data

How the results depend on the processing

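Each result on the receptors tested was recomputed under 15 other settings. For Lag3 the difference from 4 h to 14 h stayed between 5.27 and 5.50, and that from 0 h to 14 h between 6.68 and 6.76. Cd96 at 14 h against 0 h lay between -0.84 and -0.76 and Cd160 between -0.94 and -0.74. The Cd160 range always included its brightest probe set, alone or averaged with the others. Taken alone, 1420396_at differed by -0.62 ± 0.10 (SE) and 1456847_at by -2.25 ± 0.13, both outside that range. The rise of Cd160 with LPS in B cells passed under all settings run (adjusted p between 5.19e-10 and 3.93e-05, limma) but shrank to 0.47 when its 4 probe sets were averaged. Every setting used 1420066_s_at, alone or in that average, so these passes say nothing about the other probe sets. Those of the others that were fitted did not pass (limma adjusted p = 0.613 and 0.922). Cd160 had reached the testing level through T cells only. Without the filter on dim genes Havcr2 passed the test for LPS in B cells (-0.55, adjusted p = 0.0082), with both means under 4. Leaving out the 2 arrays with a weak spike-in signal raised the count of ligands that rose at 14 h against 0 h from 2 to 4 and that of ligands that fell from 1 to 2.

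With all probe sets fitted, features called numbered 12399 for LPS, 9982 for ConA 4 h, 10505 for ConA 14 h against 0 h, 7262 for ConA 14 h against 4 h and 12258 for B against T cells, since more features were tested. With the replicate block the counts of genes were 7162, 5889, 6099, 4286 and 6860, all within 1.5 times of the counts without it, and it changed no call of a receptor described here. Leaving out 1 array gave 7012 to 7092, 5607 to 5918, 5812 to 5891, 3823 to 4335 and 6592 to 6733 genes. In B against T cells 33.2% of changed genes were higher in B cells, 43.9% with array medians set equal and 41.5% with cyclic loess, and the median of all genes was -0.27 as deposited. Rnf115, beside Cd160, had no change called on its brightest probe set at 4 h (-0.02, limma adjusted p = 0.9) or 14 h (-0.11, adjusted p = 0.356) against 0 h. Its difference at 4 h was positive without T ConA 4 h replicate 1 (leaving out 1 array gave -0.035 to 0.48). Without both doubted arrays it was 0.26 at 4 h and 0.27 at 14 h. These positive values match the other Rnf115 probe set, with T cell means of 10.16, 10.36 and 10.66 at 0 h, 4 h and 14 h. Its lowest arrays read 9.73 at 0 h and 9.81 at 4 h. The positive values thus came with a change of probe set and show no reversal on 1 probe set. The fall of Adam17 from 4 h to 14 h was lost with the mean over probe sets (-0.21). Signals near 2.24 carry no order, which limits Havcr2, Lag3 before 14 h and all B cell values of Cd96.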
